A study of Mus musculus with 6 samples.

Results

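Mal, Mal2, Mall, Plet1 and Wfdc2 are 5 genes whose products sit in, or are secreted from, the surface of epithelial cells. All 9 probe sets that the platform annotation assigns to exactly 1 of these symbols are described, out of 45101 on the array, and they stand for 5 of the 18193 genes measured. Mal, Mal2 and Plet1 were known to be lower in Pax2 null cells when the genes were chosen, so their differences between genotypes are given as descriptions, with no test.

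EGFP-positive cells of the intermediate mesoderm of E11.5 mouse embryos were sorted by fluorescence, and their RNA was measured. There were 3 Pax2 null samples, whose titles read EGFP/EGFP, and 3 Pax2 heterozygote samples, whose titles read EGFP/+. Every sample therefore carries at least 1 EGFP allele and lacks at least 1 working copy of Pax2, which encodes a kidney transcription factor, and no wild-type sample was analysed here. By these titles the genotypes also differ in the number of EGFP alleles, and the cells were sorted on EGFP. Any effect of that on the sort cannot be told apart from an effect of Pax2. The labels give neither the strain, nor the number of embryos in a sample, nor the sequence that drives EGFP, and they do not state separate animals or litters, so any p-value here reflects how far these arrays scatter, and that scatter may be technical. Amplified cDNA from 10 ng of total RNA was hybridized to a 1-colour Affymetrix array, and the values are on a log2 scale.

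The MAL proteins are small, very hydrophobic membrane-spanning proteins (proteolipids) of the MARVEL domain family, and they collect in glycolipid-rich membrane patches called rafts. In polarized epithelial cells, MAL carries proteins from the Golgi to the apical surface and MAL2 carries them across the cell from the basolateral to the apical side, as worked out in canine and human cell lines. Plet1 encodes a GPI-anchored glycoprotein found on placental and epithelial progenitors, and Wfdc2 a small secreted protein with WAP domains, named HE4 in the human epididymis. The nephric duct is an epithelial tube of the intermediate mesoderm, and its branch, the ureteric bud, forms the collecting ducts of the kidney.

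The stretches directly before the starts of the 2 genes with the largest differences, Plet1 and Mal, are shown. Both genes were lower in every null array than in any heterozygote array, but so was Mal2. Within genotypes, Mal and Plet1 deviated in opposite directions by their brightest probe sets, so no link between them is read from the arrays. Each stretch is the 250 bases before the RefSeq start in build GRCm38.p6. It is written 5′ to 3′ in the direction of the gene, with a match to a searched motif in capitals. Plet1 lies on the plus strand (chr9:50494275-50494524) and Mal on the minus strand (chr2:127656696-127656945).

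Plet1: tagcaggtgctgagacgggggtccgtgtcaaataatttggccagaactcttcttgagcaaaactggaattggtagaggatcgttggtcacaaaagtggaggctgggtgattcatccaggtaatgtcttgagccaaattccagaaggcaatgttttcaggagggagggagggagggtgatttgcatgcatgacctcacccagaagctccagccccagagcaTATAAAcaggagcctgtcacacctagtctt

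Mal: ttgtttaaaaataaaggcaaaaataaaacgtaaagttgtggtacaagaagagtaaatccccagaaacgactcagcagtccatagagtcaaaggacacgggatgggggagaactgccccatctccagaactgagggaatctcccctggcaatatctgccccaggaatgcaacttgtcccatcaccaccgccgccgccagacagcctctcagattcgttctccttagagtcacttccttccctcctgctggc

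The capitals in Plet1 mark a TATA box, TATAAA, which begins 30 bases before the start. On either strand, 12.3% of 32536 distinct windows of this length from RefSeq genes hold these letters. The windows of Mal, Mall and Wfdc2 hold none of the 5 motifs searched, and 4 of the 5 genes had a window in the table. The other motifs, each searched on both strands, were GCGTGAC, the core of a site for Pax2 and its closest relatives (in 1.79% of windows), AGATAA for GATA factors (9.97%), AACCNGTT for Grainyhead-like factors (1.79%) and GTTAAT, a half-site for HNF1 factors (6.47%). The Plet1 window has 3 CpG dinucleotides, the Mal window 7, the Mall window 11 and the Wfdc2 window 14, against a median of 6 over all windows.

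Mal, the founding member of the proteolipids, has 2 probe sets. By the brighter (1417275_at), Mal had 6.26, 7.35 and 6.29 in the null arrays, against 10.08, 9.90 and 9.92 in the heterozygote arrays (log2, replicates 1 to 3). The genotypes were far from overlapping, with 2.55 log2 units between the highest null array, null 2, and the lowest heterozygote array. The means were 6.63 ± 0.62 in null and 9.96 ± 0.10 in heterozygote cells (SD, n = 3 each), a difference of -3.33 ± 0.29 (SE), or a 10.1-fold lower level in null. In sorted bulk cells, fewer cells of a type and less RNA per cell cannot be told apart. The second Mal probe set (1432558_a_at) gave 6.94, 6.57 and 6.28 in null and 9.44, 9.49 and 9.81 in heterozygote arrays, a difference of -2.98 ± 0.21 (SE). Both probe sets thus separated the genotypes by a similar amount, but they ranked the null arrays differently, null 2 standing highest by the brighter one only. The null arrays spread over 1.09 log2 units by the brighter probe set and the heterozygote arrays over 0.18.

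Mal2, which encodes the proteolipid of the transcytotic route, is read by 1 probe set (1427042_at). It had 5.42, 6.14 and 6.99 in the null arrays, against 9.28, 8.26 and 9.13 in the heterozygote arrays (log2). All null arrays lay below all heterozygote arrays, with a gap of 1.27 between null 3 and heterozygote 2. The means were 6.18 ± 0.78 in null and 8.89 ± 0.55 in heterozygote cells (SD, n = 3 each), and the difference was -2.71 ± 0.42 (SE), a 6.55-fold lower level in null. Mal2 varied more within each genotype than Plet1 did, over 1.56 log2 units in null and 1.02 in heterozygote arrays.

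Mall, also called BENE, encodes another proteolipid of the family, studied in human endothelial and epithelial cells. Both of its probe sets were dimmer than the 33rd percentile of probe set means (4.81) on all 6 arrays. The brighter (1435693_at) gave 4.59, 4.28 and 4.70 in null and 4.21, 4.36 and 3.77 in heterozygote arrays, so the genotypes overlapped. The means were 4.52 ± 0.22 in null and 4.11 ± 0.31 in heterozygote cells (log2, SD, n = 3 each), with a difference of 0.41 ± 0.21 (SE). The other (1425359_at) gave 4.13, 4.47 and 3.97 in null and 4.13, 3.96 and 3.64 in heterozygote arrays, again overlapping, with a difference of 0.28 ± 0.20 (SE). Differences between such dim probe sets are compressed towards 0, and no detection calls were used, so neither presence nor absence of Mall RNA can be read from these values.

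Plet1, the surface protein of epithelial progenitors, has 3 probe sets, and in each of them every null array lay below every heterozygote array. The brightest (1454254_s_at) had 6.46, 5.84 and 6.34 in null and 9.45, 9.79 and 9.79 in heterozygote arrays (log2). The gap between the genotypes, 2.99 log2 units, was wider than for Mal or Mal2. The means were 6.22 ± 0.33 in null and 9.67 ± 0.20 in heterozygote cells (SD, n = 3 each), a difference of -3.46 ± 0.21 (SE), or an 11.0-fold lower level in null. A second probe set (1423933_a_at) gave 4.32, 5.02 and 5.72 in null and 9.48, 8.61 and 8.73 in heterozygote arrays, the largest difference of the 9 probe sets at -3.92 ± 0.38 (SE). The dimmest (1423934_at), designed from the same source sequence, gave 4.96, 5.53 and 5.43 in null and 6.64, 6.69 and 6.53 in heterozygote arrays, a difference of -1.31 ± 0.19 (SE). The sign was therefore shared by all 3 while the size was not, with fold differences of 11.0, 15.1 and 2.49. The suffix _s marks a probe set that may also bind transcripts of other genes. The mean over the 3 probe sets gave a difference of -2.90 ± 0.17 (SE).

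Wfdc2, the secreted WAP protein, had 9.29, 10.13 and 9.75 in the null arrays, against 10.96, 9.79 and 10.75 in the heterozygote arrays (log2, probe set 1424351_at). The genotypes overlapped, since heterozygote 2 lay 0.34 below null 2. The means were 9.72 ± 0.42 in null and 10.50 ± 0.63 in heterozygote cells (SD, n = 3 each), a difference of -0.78 ± 0.34 (SE). Wfdc2 was thus 1.71-fold lower in null by the means, and that difference was of the order of the spread between arrays. Leaving out heterozygote 2 gave -1.13, and leaving out heterozygote 1 gave -0.54.

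**Figure D1:**
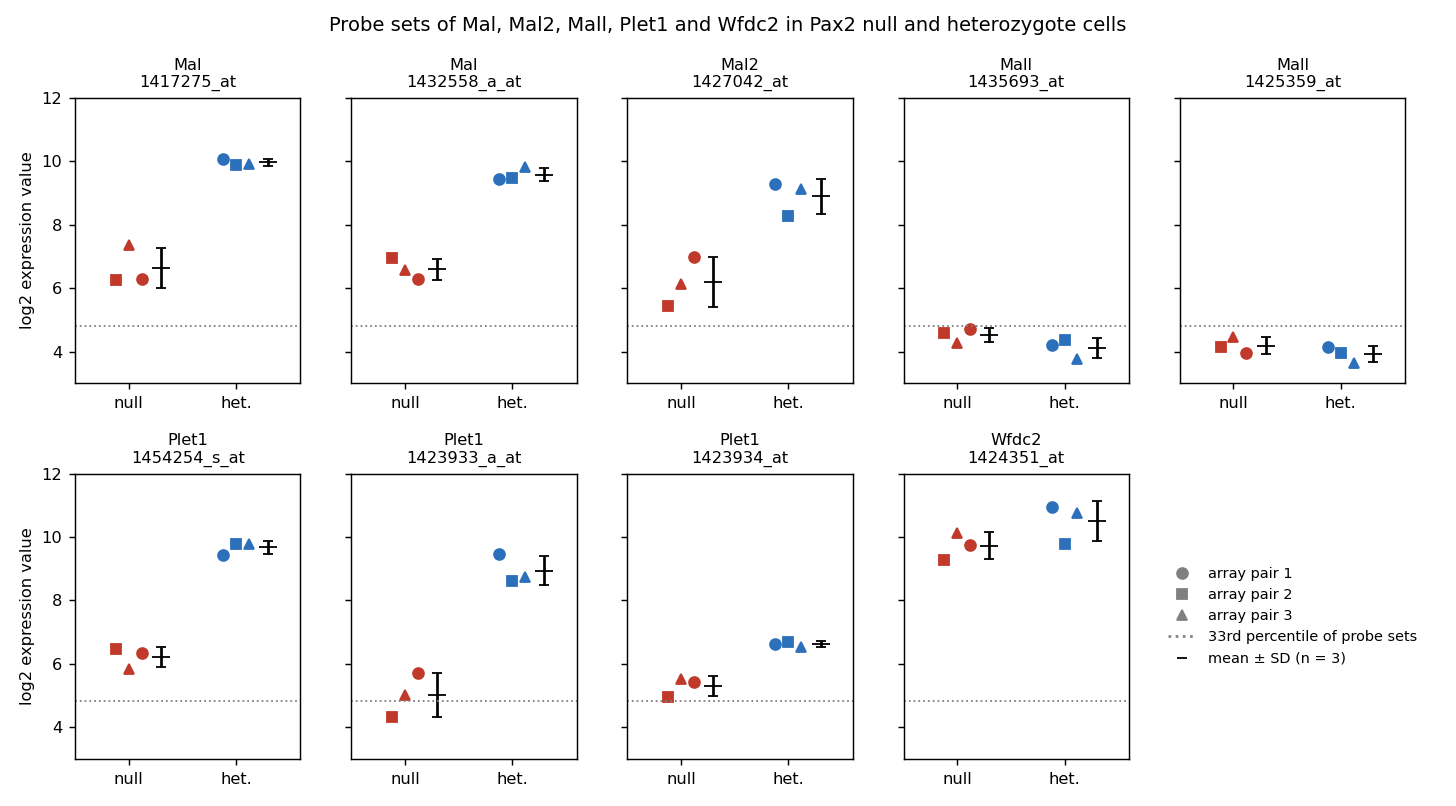
Log2 values of the 9 probe sets in the 3 null arrays (red, left) and the 3 heterozygote arrays (blue, right), with the mean ± SD beside each group, symbols for the array pair and a dotted line at the 33rd percentile of probe set means (4.81). The 6 probe sets of Mal, Mal2 and Plet1 separate the genotypes, those of Mall lie under the dotted line, and those of Wfdc2 overlap.

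In 6 of the 9 probe sets all null arrays lay below all heterozygote arrays, as they did in 6.6% of the 34945 probe sets with 1 gene symbol. Nothing is read from this count, since the 5 genes were picked with this contrast known. Ordered from the most negative difference, Plet1 stood at rank 2 of 18193 genes, Mal at 5, Mal2 at 13, Wfdc2 at 426 and Mall at 16779. For the other genes, limma was run over all 18193 genes with Benjamini-Hochberg adjustment and a threshold of 0.05. By it 253 genes (1.39%) passed, 0.583% lower and 0.808% higher in null. That count was 86 without null 1, 110 without null 2, 98 without heterozygote 2 and 84 without heterozygote 3.

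The labels name no batch, but 14 bacterial hybridization controls sorted the arrays into 3 pairs of 1 null and 1 heterozygote array each. Mean bioB control levels were 10.55 in null 3 and 10.52 in heterozygote 1 (pair 1), 8.20 in null 1 and 7.81 in heterozygote 2 (pair 2), and 7.23 in null 2 and 7.24 in heterozygote 3 (pair 3, all log2). Within pairs 1, 2 and 3, null minus heterozygote was -3.11, -3.33 and -3.95 for Plet1 and -3.79, -3.63 and -2.57 for Mal, by the brightest probe set of each. The other probe set of Mal had -3.16, -2.54 and -3.24, and the others of Plet1 had -3.76, -4.30 and -3.71 and -1.21, -1.74 and -1.0. Every probe set of both genes was lower in null in each pair, but which pair differed most depended on the probe set. Mal2 had -2.29, -2.84 and -3.0, a narrower range than its spread within either genotype. Wfdc2 had -1.21, -0.50 and -0.62, so the null array was the lower one in each pair although the genotypes overlapped. Mall had 0.48, 0.23 and 0.51 by its brighter probe set and -0.17, 0.17 and 0.82 by the other. With the pair as a block, the SE of the difference was 0.25 for Mal, 0.16 for Mal2, 0.11 for Mall, 0.18 for Plet1 and 0.17 for Wfdc2. Without the block these SEs were 0.29, 0.42, 0.21, 0.21 and 0.34, so the change was small for Mal and Plet1.

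**Figure D2:**
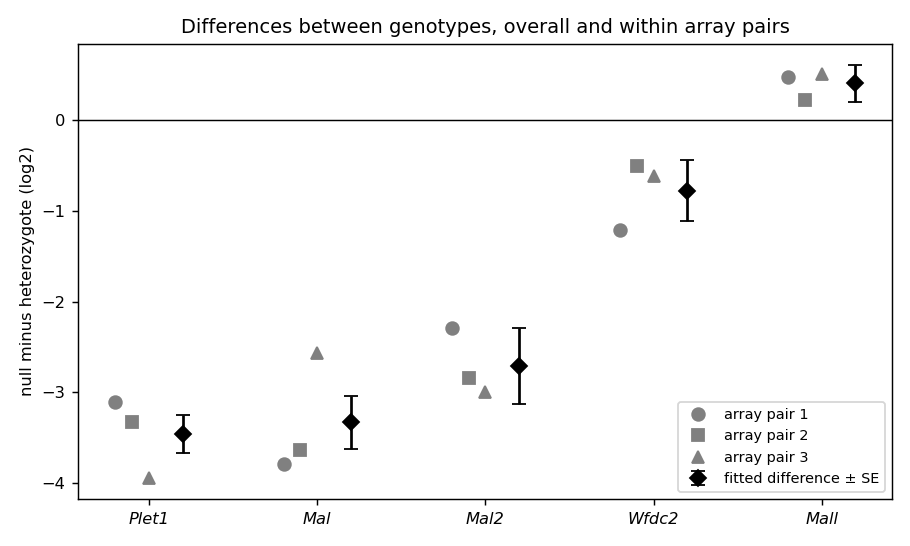
Null minus heterozygote (log2) for each gene's brightest probe set, with grey symbols for the 3 array pairs and a black diamond for the fitted difference ± SE. Plet1, Mal, Mal2 and Wfdc2 are below 0 in all 3 pairs, with Wfdc2 between -1.21 and -0.50.

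Mal2 and Wfdc2 shared their lowest arrays, null 1 among null and heterozygote 2 among heterozygote arrays, which together form pair 2. Relative to the mean of its genotype, Mal2 stood at -0.76 in null 1 and -0.63 in heterozygote 2, and Wfdc2 at -0.44 and -0.71 (log2). For Plet1 and Mal no such order can be given, because their probe sets ranked these arrays differently. Null 1 was the highest null array by 1454254_s_at of Plet1 and the lowest by its other 2 probe sets, and it was the lowest by the brighter probe set of Mal and the highest by the other. With the brightest probe set of each gene centred on its mean over the 6 arrays, the root-mean-square difference between profiles was smallest between Mal and Plet1 (0.58 log2 units). It was 0.72 between Mal and Mal2 and 1.04 between Mal2 and Wfdc2. This measure includes the difference between genotypes, which was known for Mal, Mal2 and Plet1 when they were chosen. Within genotypes, Mal and Plet1 deviated in opposite directions by these probe sets, as in null 2 (0.72 for Mal and -0.37 for Plet1).

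By the same measure, the genes most like Mal were Ret, the duct's receptor tyrosine kinase for Gdnf (0.36), Car4, a GPI-anchored carbonic anhydrase (0.41), and the adhesion molecule L1cam (0.41). Ret had 6.46, 8.0 and 5.86 in null and 9.91, 10.27 and 10.26 in heterozygote arrays (log2). Car4 lay under the 33rd percentile of probe set means (4.81) in null 1 and null 3. As for the brighter probe set of Mal, though not for its other one, null 2 was the highest null array in all 3 of these genes. The genes most like Mal2 were Plac8 (0.26), Sema3d, a secreted guidance cue (0.38), and the transcription factor Elf5 (0.38). Plac8 had 6.67, 6.94 and 7.98 in null and 10.43, 9.30 and 9.60 in heterozygote arrays. Elf5 lay under the 33rd percentile of probe set means (4.81) in every null array, where differences are compressed. In Mal2 and these 3 genes, null 3 was the highest null array and heterozygote 2 the lowest heterozygote array. Since all such genes were picked for likeness over these same arrays, nothing is read from a shared order of arrays.

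The genes most like Plet1 were the imprinted noncoding RNA Ipw (0.29), H2-DMb2, a subunit of an MHC class II peptide loader (0.58), and Ipcef1 (0.58). Only Ipw stood within 0.3 log2 units of Plet1, and it had 3.78, 3.81 and 4.26 in null and 7.15, 7.85 and 7.16 in heterozygote arrays. All null values of Ipw and Ipcef1 lay under the 33rd percentile of probe set means (4.81), where differences are compressed. The genes most like Wfdc2 were Agpat2, an enzyme of phospholipid synthesis (0.13), ccdc198 (0.14) and Pkhd1, whose human counterpart is mutated in recessive polycystic kidney disease (0.19). Pkhd1 had 6.04, 7.34 and 7.11 in null and 8.05, 6.86 and 7.93 in heterozygote arrays, with null 1 and heterozygote 2 lowest as in Wfdc2. Within 0.3 log2 units there were 72 genes for Wfdc2 and 3413 for Mall, whose small differences many genes share, against 0 for Mal and 1 for Mal2. The 3 nearest to Mall were Rab13 (0.056), Smug1 (0.085) and Klhl13 (0.094).

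**Figure D3:**
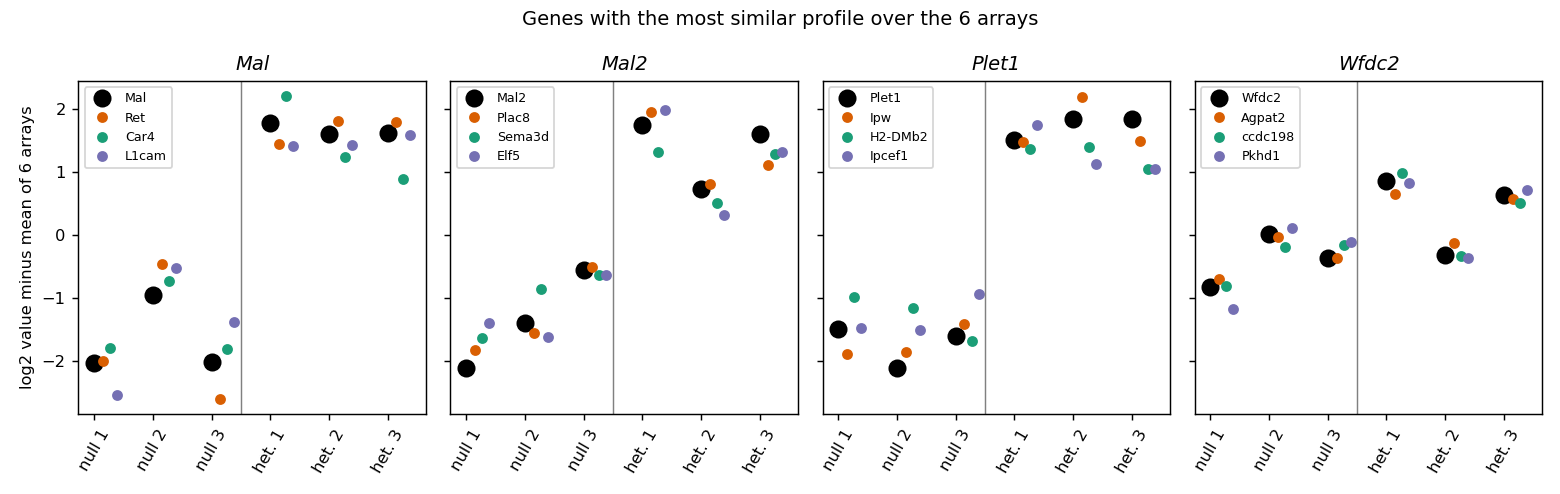
Log2 value minus the gene's mean over the 6 arrays, with null arrays left of the line and heterozygote arrays right of it, for Mal, Mal2, Plet1 and Wfdc2 (black) and the 3 genes nearest to each (colours). Null 2 is the highest null array for the brighter probe set of Mal and its 3 nearest genes. Heterozygote 2 is the lowest heterozygote array for Mal2, Wfdc2 and theirs. The nearest genes were picked for likeness over these arrays.

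Mal and Mall are next to each other among the measured genes of chromosome 2 in RefSeq's gene order, and they had differences of -3.33 and 0.41. Mrps5, on the other side of Mal, had 9.23 ± 0.26 in null and 9.23 ± 0.37 in heterozygote cells (log2, SD, n = 3 each). Plet1os, a transcript next to Plet1 on the opposite strand, had 2.95 ± 0.22 in null and 2.88 ± 0.04 in heterozygote cells. Both means are under the 33rd percentile of probe set means (4.81), where differences are compressed. Of the 16 other genes among the 2 nearest measured on each side of the 5 genes, limma called 0, and 0 had an unadjusted p under 0.05. Over all genes these shares were 1.39% and 9.73%, so nothing is read from 0 of 16, several of which were also dim. Their differences ranged from -0.56 to 0.33.

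The wider families were described with 5 lists, chosen by function with earlier results of these data known. Among 27 measured genes listed as tetraspan relatives of Mal, limma called 0, and 2 with the array pair as a block. An unadjusted p under 0.05 was found for 6 of them, where 9.73% of all genes had one. These genes were listed because they span the membrane like Mal, and not all are of the MARVEL family. The median difference was -0.07, against -0.02 over all genes, and -0.22, -0.06 and -0.03 within pairs 1, 2 and 3. Pllp, a myelin proteolipid also found in kidney epithelia, had a difference of -0.63 ± 0.19 (SE), and Ocln, a tight junction protein, of -1.22 ± 0.37, and neither passed (limma, adjusted p = 0.238 for Pllp and 0.244 for Ocln). The 2 that passed with the block were Ocln, lower in null (limma, adjusted p = 0.0458), and Gpm6b, a neural proteolipid outside the MARVEL family, higher in null (limma, adjusted p = 0.0206). Of all genes, 4.56% passed with the block (1.9% lower and 2.67% higher in null). Without the block Gpm6b had a difference of 1.08 ± 0.24 (limma, adjusted p = 0.0882). Plp2, Marveld1 and Sypl, the brightest of the list, had -0.09 ± 0.15, 0.57 ± 0.15 and -0.22 ± 0.16. Pllp, Ocln and Gpm6b were picked after their values were seen.

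Of 35 apical transport and raft genes, a list that also holds apical surface proteins, 1 rose and 0 fell, where 0.808% of all genes were higher in null. This was Podxl, an apical sialomucin, with 9.66 ± 0.34 in null and 7.94 ± 0.45 in heterozygote cells (log2, SD, n = 3 each), a difference of 1.72 ± 0.27 (SE; limma, adjusted p = 0.0247). Its call was lost in every fit with 1 array left out but that without heterozygote 1 (limma, adjusted p up to 0.101). The list's count was 0 in those 5 fits and 3 without heterozygote 1. With the pair block 6 passed, 3 higher in null (Podxl, Anxa2 and Sytl2) and 3 lower (Ezr, Lgals3 and Myo5b), named here because the split differs from that without the block. The median was 0.04, and -0.16, 0.03 and 0.02 within pairs 1, 2 and 3. Cdc42, a polarity GTPase, Tpd52l2, a relative of the MAL2 partner TPD52, and the annexin partner S100a10 did not pass. They had 0.04 ± 0.21, 0.13 ± 0.18 and 1.04 ± 0.29. S100a10 did pass, higher in null, with array weights (limma, adjusted p = 0.0384) and without heterozygote 1 (limma, adjusted p = 0.0287).

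The list of WAP domain genes, relatives of Wfdc2, also holds the Kunitz inhibitor gene Spint4. Among its 15 measured genes limma called 0, with 1 at an unadjusted p under 0.05 and 1 with the pair block, in both cases Wfdc15b. Over all genes, 9.73% had an unadjusted p under 0.05 and 4.56% passed with the block. Wfdc15b had 7.74 ± 0.57 in null and 8.97 ± 0.66 in heterozygote cells (log2, SD, n = 3 each; limma, adjusted p = 0.258, and 0.0165 with the block). On all 6 arrays 8 of the 15 stood under the 33rd percentile, among them Wfdc6a and Eppin, the measured genes next to Wfdc2. The median was -0.01, and 0.16, -0.09 and 0.06 within the pairs. Wfikkn1 had -0.05 ± 0.18 and Wfdc1 -0.01 ± 0.25.

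Of 29 GPI-anchored surface proteins, anchored like Plet1, Car4 fell and Gpc4, a heparan sulfate proteoglycan, rose. Car4 had 4.64, 5.71 and 4.63 in null and 8.64, 7.68 and 7.32 in heterozygote arrays (log2; limma, adjusted p = 0.0168), and Gpc4 10.76, 10.62 and 10.70 in null and 9.95, 9.51 and 9.35 in heterozygote arrays (limma, adjusted p = 0.0351). Where 1.39% of all genes passed, these were 2 of 29. The call of Gpc4 was lost with median centring (limma, adjusted p = 0.0568), with the mean over probe sets (limma, adjusted p = 0.0972) and in 5 of the 6 fits that omitted an array, while Car4 passed in 4 of those 6. The list's count was 0 without null 1 or heterozygote 2, 1 without null 2, null 3 or heterozygote 3, and 4 without heterozygote 1 (3 lower, 1 higher in null) or with the pair block (2 lower, 2 higher). Gfra1, Ret's co-receptor, picked after its value was seen, had a difference of -1.60 ± 0.30 (limma, adjusted p = 0.0509, and 0.0143 with the block). The median was 0.13, and 0.03, 0.08 and 0.12 within the pairs. Cd24a, Gpc3 and Gpc6, the brightest that did not pass, had -0.11 ± 0.14, 0.17 ± 0.14 and 0.02 ± 0.20.

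Of 31 measured duct surface and adhesion genes, 4 fell and 0 rose, or 12.9% of the list against 1.39% of all genes. The list was written with the changes of Ret, L1cam and Cltrn known. Cldn8, a claudin of the collecting duct, had 7.04, 7.81 and 8.07 in null and 9.92, 9.13 and 9.30 in heterozygote arrays (log2; difference -1.81 ± 0.31, SE; limma, adjusted p = 0.0342). Cltrn, the collectrin gene, had 3.63, 3.11 and 3.64 in null and 7.56, 6.05 and 6.33 in heterozygote arrays (limma, adjusted p = 0.0102). Its null values all lay under the 33rd percentile of probe set means (4.81). Ret and L1cam had differences of -3.37 ± 0.48 and -2.95 ± 0.44 (SE). Of these 4, Cltrn passed in 6 of the 6 fits that omitted an array, Ret and L1cam in 3 and Cldn8 in 1. The count was 2 without null 1, 1 without heterozygote 2 or 3, and 7 with the pair block (6 lower and 1 higher in null). The list's median was -0.14, and -0.35, -0.26 and -0.12 within the pairs. Cd24a, Epcam and Cldn6, the brightest epithelial surface genes that did not pass, had -0.11 ± 0.14, -0.06 ± 0.16 and 0.03 ± 0.20.

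**Figure D4:**
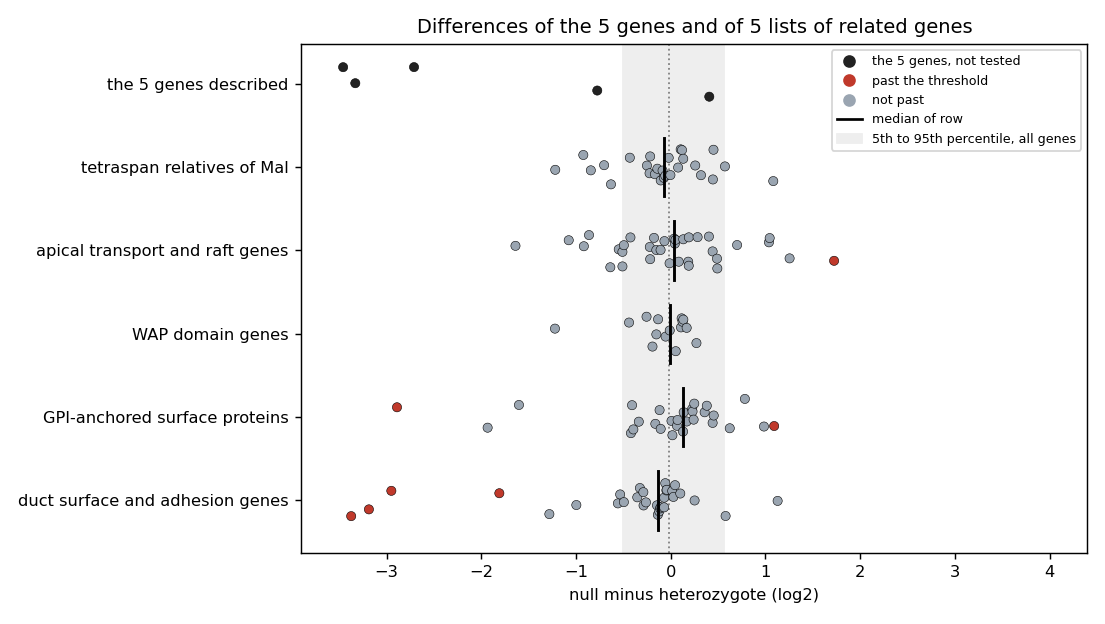
Null minus heterozygote (log2) of the 5 genes (top row, black, not tested) and of the genes in the 5 lists, red where limma's adjusted p was under 0.05 and grey otherwise, with each list's median as a black line and the 5th to 95th percentile of all genes shaded. Mal, Mal2 and Plet1 lie at -2.71 or below, near Ret, Cltrn, L1cam and Car4, while the list medians lie between -0.14 and 0.13.

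Markers of the cells that the dissection could hold also differed between the genotypes. The summed level of 15 nephric duct markers ranged from 12.75 to 13.23 in null and from 13.41 to 13.99 in heterozygote arrays (log2), with 5 of the 15 falling, 0 rising and 0 under the 33rd percentile on all arrays, where 0.583% of all genes were lower and 0.808% higher in null. The 5 were the calcium-binding protein gene Calb1 (-5.97), Ret (-3.37) and the transcription factor genes Lhx1 (-2.50), Sim1 (-1.86) and Gata3 (-1.40). Of those that did not pass, the brightest, Krt18, Krt8 and Cdh1, had differences of -0.05 ± 0.25, -0.05 ± 0.25 and -0.29 ± 0.30 (SE). Tfap2b alone of the 15 had a positive difference, 1.19 ± 0.24 (adjusted p = 0.0665 by limma, 0.0112 with the array pair as a block). Basal and surface ectoderm markers, of which 3 of 9 rose and 0 fell, summed to 10.64 to 11.13 in null and 8.41 to 8.55 in heterozygote arrays, with Krt14, Krt17 and Gjb6 under the 33rd percentile on all arrays. Stroma markers (6 of 11 rose, 0 fell) summed to 13.70 to 13.92 in null and 12.27 to 12.79 in heterozygote arrays, and gonad and adrenal markers (1 of 8 rose, 0 fell) to 10.32 to 10.61 in null and 9.34 to 9.37 in heterozygote arrays. Neural markers (3 of 10 rose, 1 fell) summed to 11.13 to 11.68 in null and 10.52 to 11.06 in heterozygote arrays, with Sox2 and Olig2 under the 33rd percentile throughout. Summed levels overlapped between genotypes for nephron progenitor and mesenchyme (3 of 10 fell, 1 rose), hindgut and cloacal endoderm (1 of 10 rose, 0 fell), macrophage and leukocyte (0 of 12 called by limma, 7 at an unadjusted p under 0.05, as were 9.73% of all genes), endothelium (0 of 8, with 0) and erythroid markers (0 of 7, with 0). Within every array pair, however, the macrophage and leukocyte sum was higher in null (11.52, 10.67 and 12.10, against 10.70, 9.55 and 10.12 in the heterozygote arrays of pairs 1, 2 and 3), as was the endoderm sum, and the progenitor and mesenchyme sum was lower. With the pair block, 4 macrophage and leukocyte markers passed, all higher in null (Tyrobp, Laptm5, C1qb and Mrc1). With that block 9 of 11 stroma, 4 of 9 ectoderm, 3 of 10 neural and 3 of 8 gonad and adrenal markers were higher. So were 2 of 10 endoderm, 1 of 15 nephric duct and 1 of 10 progenitor markers. Lower were 6 of 15 nephric duct, 5 of 10 progenitor, 1 of 10 neural and 1 of 10 endoderm markers. Over all genes, 2.67% were higher and 1.9% lower in null with the block. The part of these markers in the differences of Mal, Mal2 and Plet1 was not tested.

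**Figure D5:**
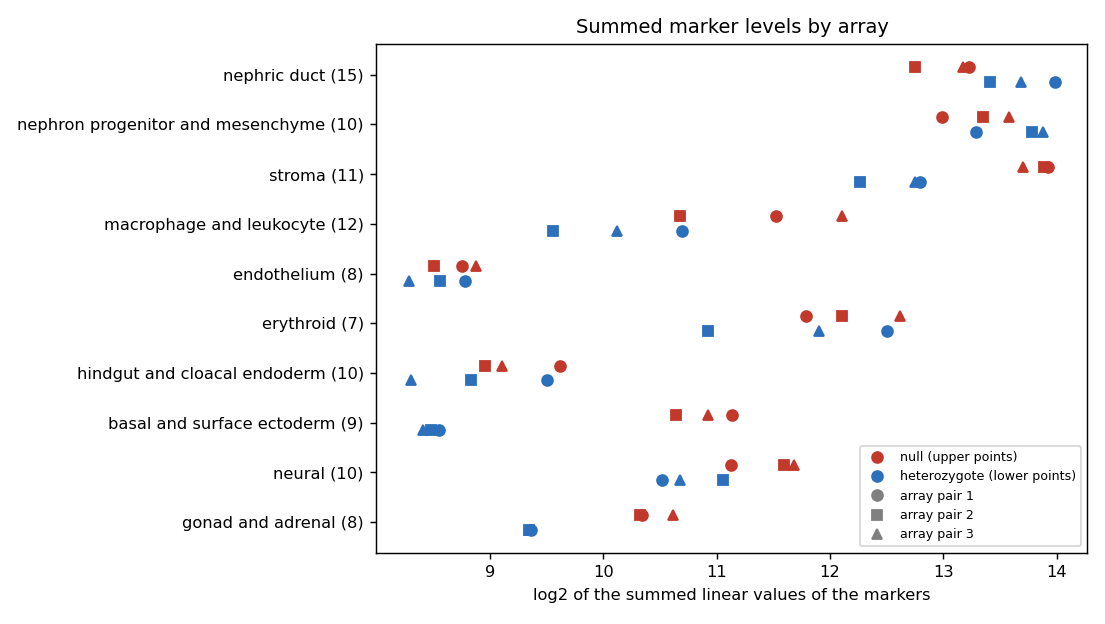
Log2 of the summed linear values of the measured markers of 10 cell types (number of markers in brackets) in null (red, upper points) and heterozygote arrays (blue, lower points), with symbols for the array pair. Nephric duct markers were lower in null (12.75 to 13.23, against 13.41 to 13.99 in heterozygote arrays), and basal and surface ectoderm markers were higher.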

How the data were processed

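The deposited table holds 1 log2 expression value per probe set and array, and the submitters' processing notes name affy, RMA and limma without versions. RMA corrects background, equalizes the arrays and summarizes probes, which hides differences in total RNA per cell and compresses dim differences. Its settings are not stated in the labels. The 9 probe sets were found by symbol in the platform annotation. Of 45101 probe sets, 64 were controls, 34945 had 1 symbol, 932 had several and 9160 were not listed. Identifiers of 34741 matched the RefSeq table of GRCm38.p6. Of 9010 genes with several probe sets, the brightest on average stood for the gene, and no filter was applied.

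Genotypes were contrasted in limma 3.58.1 under R 4.3.3 (functions lmFit and eBayes, two-sided, no covariates, Benjamini-Hochberg over 18193 genes, threshold 0.05), and the fit was tested on simulated data. Arrays of a genotype correlated at 0.976 to 0.991 over all probe sets, so none was a copy. Precision is limited by the 3 arrays per genotype. The 5 genes, the lists, the tests and the alternatives were chosen with earlier results of these data known. Genes named in a list were those that passed (up to 6 with the largest difference) and the 3 brightest that did not, and for each of the 5 genes the 3 nearest profiles. Others are marked in the text. Tetraspan relatives of Mal, apical transport and raft genes, WAP domain genes, GPI-anchored surface proteins and duct surface and adhesion genes formed the 5 lists, and 10 marker lists stood for cell types. Array pairs came from 14 hybridization controls, the best of 15 matchings with summed distances of 1.94 for it and 5.05 for the runner-up. Pax2 is not reported here. Alternatives tried were array weights, the pair as a block, omission of each array, median centring, quantile normalization a second time, a prior that depends on intensity, removal of genes dimmer than the 33rd percentile (4.81), the mean over probe sets and all probe sets as units. Replicate numbers were given in accession order and pair nothing.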

Additional observations from a re-analysis of the deposited data

How the results depend on the processing

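The differences of Mal, Mal2, Mall and Wfdc2 moved by less than their spread between arrays under all alternatives run, and that of Plet1 did so except with the mean over its probe sets (-2.90). With 1 array left out they ranged from -3.69 to -3.15 for Mal, -3.11 to -2.33 for Mal2, 0.23 to 0.53 for Mall, -3.58 to -3.27 for Plet1 and -1.13 to -0.54 for Wfdc2. Mall could not be fitted under the filter on dim probe sets. The count of changed genes was 553 with array weights, 830 with the array pair as a block, and 84 to 318 with 1 array left out. List counts are given in the order tetraspan, apical transport, WAP, GPI-anchored and duct surface. They were 2, 6, 1, 4 and 7 with the pair block, 2, 3, 0, 4 and 5 with array weights, and 1, 2, 0, 2 and 6 with all probe sets as units, where probe sets are counted. The tetraspan count was 1 with the mean over probe sets and the GPI-anchored count 4 with an intensity-dependent prior. With 1 array left out, the tetraspan and WAP counts were 0 in all 6 fits, and the others ranged over 0 to 3, 0 to 4 and 1 to 4. The cause of these shifts was not tested. Named genes whose sign turned stood near 0 and did not pass in any of the fits concerned. With array weights Cdc42 had -0.040, Gpc6 -0.015 and Epcam 0.012, with median centring Gpc6 had -0.013 and Cldn6 -0.0022, and with the mean over probe sets Gpc6 had -0.049. With 1 array left out Cdc42 ranged from -0.14 to 0.18, Wfikkn1 from -0.15 to 0.061, Wfdc1 from -0.26 to 0.14, Gpc6 from -0.13 to 0.16, Epcam from -0.12 to 0.039 and Cldn6 from -0.10 to 0.19.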
